A study of Mus musculus with 18 samples.

Results

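Open chromatin around 10 integrin genes was described in endothelial cells (ECs) of the mouse lung: Itga1, Itga2, Itga3, Itga5, Itga6, Itga9, Itgav, Itgb1, Itgb3 and Itgb5. The members were regions, chosen by position around these genes and not by their values. The genes themselves were chosen with earlier results of these data known. Overlapping ATAC-seq peaks of all samples (1 bp or more) were joined into regions, those seen in 2 or more samples were retained, and a region was assigned to an integrin gene when its midpoint was closest to that gene's transcription start site (TSS) or lay inside the gene body. This gave 73 integrin regions of 47338 consensus regions. All 10 genes had at least 4 regions, and 2 regions inside Itga1 whose nearest TSS was that of Itga2 were counted for both genes.

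The lists came from 18 mice of the FVB strain, female and male, that carried the Col1α1-GFP transgene, so every group shared that background. ECs were sorted as CD45-, EpCAM-, GFP- and CD31+ cells, where GFP marks collagen I-producing cells, and each list was made from a single animal. Young Sham (n = 5) were 2-month-old mice given PBS into the trachea, Young Bleo (n = 4) were 2-month-old mice given about 1 U/kg bleomycin, Aged Sham (n = 4) were 18-month-old mice given PBS, and Aged Bleo (n = 5) were 18-month-old mice given bleomycin. All lungs were taken at day 30. Bleomycin is a DNA-damaging drug used to provoke lung fibrosis, and the study asked how age and injury change accessible chromatin in these cells.

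Integrins are membrane receptors made of an α and a β chain that tie cells to the extracellular matrix and signal through adaptors at focal adhesions. In ECs, α1β1 and α2β1 bind collagens, α3β1 and α6β1 bind laminins of the basement membrane, α5β1 binds fibronectin, and αvβ3 and αvβ5 bind matrix proteins that carry an RGD motif, such as vitronectin. Integrin α9β1 binds tenascin-C and fibronectin and is known for its role in lymphatic valves. Itgb1 encodes the β1 chain shared by most of these receptors. ATAC-seq reads open chromatin with a transposase, and MACS2 calls a peak where fragments pile up above the local expectation.

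The sequences below are shown because their regions differed between groups in presence or strength of a peak. Each is 200 bases of the GRCm38.p6 (mm10) reference, 5′ to 3′, either centred on the strongest summit or, for a promoter, ending at the TSS. A region is named by its gene and the distance in bp of its midpoint from the nearest TSS of that gene, with upstream negative. Capitals mark matches, on either strand, to 3 fixed strings: CAGGAAG (reverse complement CTTCCTG, an ETS-type core as used by ERG), TGANTCA (its own reverse complement in form, an AP-1 site) and GGGCGG (reverse complement CCGCCC, a GC box). Itga9 −36714 (chr9:118674902-118675101, plus strand) lies in an intron of Itga9 and had no match.
Itga9 intron: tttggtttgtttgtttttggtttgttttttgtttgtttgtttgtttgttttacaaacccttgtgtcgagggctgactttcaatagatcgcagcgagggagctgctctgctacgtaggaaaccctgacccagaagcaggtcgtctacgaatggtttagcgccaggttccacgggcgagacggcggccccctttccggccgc
Itgav +17999 (chr2:83742277-83742476, plus strand) lies in an Itgav intron and held an AP-1 string and a GC box.
Itgav intron: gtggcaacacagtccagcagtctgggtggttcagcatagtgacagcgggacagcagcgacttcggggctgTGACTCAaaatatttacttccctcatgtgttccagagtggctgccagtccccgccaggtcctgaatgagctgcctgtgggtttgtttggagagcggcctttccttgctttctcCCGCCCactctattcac
Itga6 +14930 (chr2:71801814-71802013, plus strand) lies in an Itga6 intron and held an AP-1 string.
Itga6 intron: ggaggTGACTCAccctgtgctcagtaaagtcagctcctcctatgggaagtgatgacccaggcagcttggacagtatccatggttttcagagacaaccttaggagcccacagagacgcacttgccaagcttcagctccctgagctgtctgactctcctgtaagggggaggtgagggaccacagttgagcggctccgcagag
Itga2 +46805 (chr13:114885181-114885380, shown on the plus strand) lies in an Itga2 intron and had no match.
Itga2 intron: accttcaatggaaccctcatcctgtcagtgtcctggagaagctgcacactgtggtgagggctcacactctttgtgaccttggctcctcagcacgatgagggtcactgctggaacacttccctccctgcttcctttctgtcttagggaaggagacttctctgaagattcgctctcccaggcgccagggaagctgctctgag
The 200 bases upstream of the Itga3 TSS (chr11:95076812-95077011, minus strand, as the gene is read) held 3 GC boxes.
Itga3 promoter: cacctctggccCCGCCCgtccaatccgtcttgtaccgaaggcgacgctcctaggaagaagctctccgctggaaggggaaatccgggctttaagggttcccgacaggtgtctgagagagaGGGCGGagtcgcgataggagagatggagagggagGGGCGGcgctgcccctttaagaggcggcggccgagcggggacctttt
The 200 bases upstream of the Itgb5 TSS (chr16:33829465-33829664, plus strand) also held 3 GC boxes.
Itgb5 promoter: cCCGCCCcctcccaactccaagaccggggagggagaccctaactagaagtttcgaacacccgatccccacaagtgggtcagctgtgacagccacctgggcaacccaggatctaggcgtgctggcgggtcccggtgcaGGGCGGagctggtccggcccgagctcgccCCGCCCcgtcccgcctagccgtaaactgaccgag

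Lists held 21050 to 40883 peaks, and this depth moved with the groups. The share of all consensus regions with a peak averaged 71.9 ± 6.66% for Young Sham mice (mean ± SD, n = 5) and 75.1 ± 5.87% for Young Bleo mice (n = 4). In the aged groups it averaged 59.2 ± 7.12% (sham, n = 4) and 62.9 ± 15.6% (bleomycin, n = 5). The list names carry a lane number (after the letter L), which the labels do not describe. It also moved with the groups: lane 8 held the 5 Young Sham lists and 1 Young Bleo list, lane 7 held 3 Young Bleo and 3 Aged Sham lists, and lane 6 held 1 Aged Sham list and the 5 Aged Bleo lists. No aged list shared a lane with Young Sham, so in those comparisons age and this number cannot be told apart directly. Bleomycin in young mice moved with it as well, since only 1 of the 4 Young Bleo lists was in lane 8. A fit with lane as a term links the lanes only through Young Bleo 4 and Aged Sham 4. Promoter peaks of endothelial genes were present in all 18 samples for 5 of 8 markers (Cdh5, Kdr, Flt1, Erg and Tie1), and Pecam1 had one in 17. Tek had one in 5 of 5 Young Sham, 4 of 4 Young Bleo, 3 of 4 Aged Sham and 3 of 5 Aged Bleo samples, and Emcn in 3, 2, 0 and 2 of them. None of 8 leukocyte and none of 5 epithelial marker promoters had a peak in any sample, while 1 of 5 fibroblast markers (Pdgfra) and 1 of 4 mural markers (Myh11) had one in all 18.

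Integrin regions were mostly distal and often specific to some animals. A peak was present in all 18 samples at 18 of the 73 integrin regions (24.7%), against 36.8% of all consensus regions, and the median integrin region had a peak in 10 samples against 14. Promoters, taken to reach from 1000 bp before a TSS to 100 bp after it, held the midpoint of 7 regions (9.59%, 95% Wilson interval 4.72 to 18.5%) against 21.3% of all. By this midpoint rule the regions over the TSS of Itga5, Itga6, Itgav and Itgb1 were not counted. Itga1 +11576, over the TSS of another gene (Pelo), was counted. With promoters of 2 kb the count was 14 (19.2%), against 30.6% of all. By annotation, 33 integrin regions lay in introns, 27 between genes, 12 in UTRs and 1 in a coding exon. Presence followed position closely: of the 10 regions that covered an integrin TSS, 9 had a peak in all 18 samples, and of the 63 away from one, 9 did. The regions away from a TSS had a median distance of 23.3 kb and reached 160 kb.

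**Figure D1:**
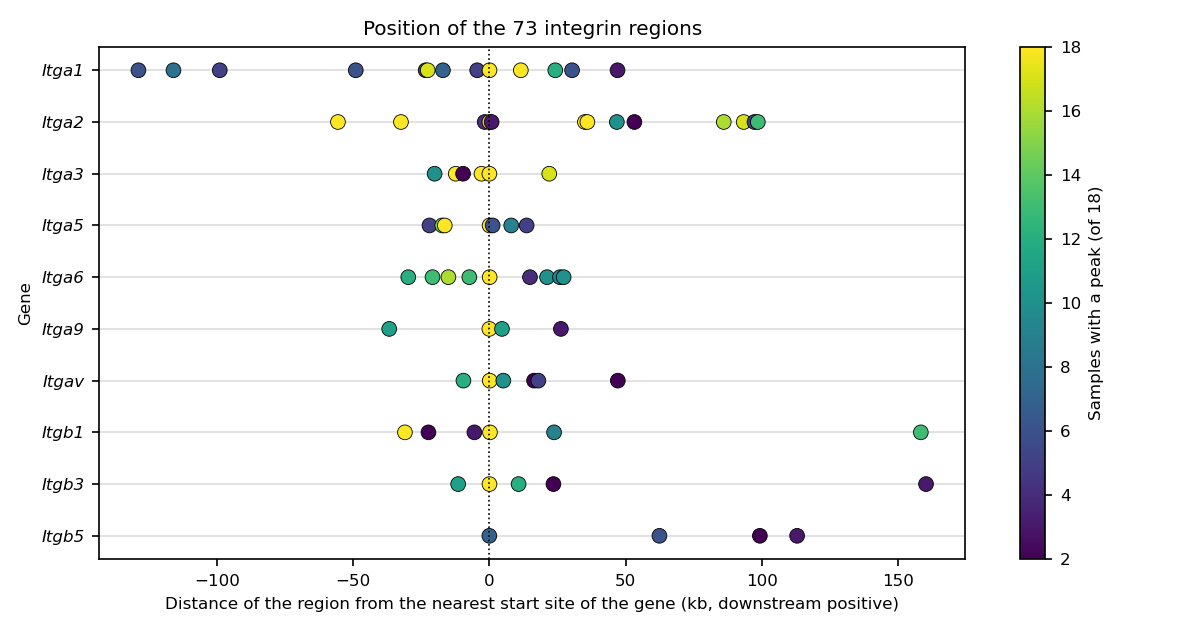
Position of the 73 integrin regions along each gene, as distance in kb of the region midpoint from the nearest TSS of the gene (x axis, downstream positive). Each point is 1 region, and its colour gives in how many of 18 samples it had a peak. Start-site regions had a peak in all 18 samples for 9 of the 10 genes, and Itgb5 was the exception with 7.

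The collagen receptor genes lie next to each other on chromosome 13 and had the most regions. Itga1 (chr13:114958079-115101964, minus strand) had 15, of which 4 had a peak in every sample, and Itga2 (chr13:114833081-114932100, minus strand) had 13, of which 5 did. The laminin receptor genes Itga3 (chr11:95044475-95076811, minus strand) and Itga6 (chr2:71786939-71858427, plus strand) had 6 and 9 regions, with 3 and 1 present throughout. Among the receptors for fibronectin and RGD proteins, Itga5 (chr15:103344286-103366791, minus strand) had 7 regions, Itgav (chr2:83724397-83806917, plus strand) 6, Itgb3 (chr11:104608000-104670473, plus strand) 5 and Itgb5 (chr16:33829665-33949338, plus strand) 4. Itga9 (chr9:118606709-118901003, plus strand), the longest of the genes at 294 kb, had only 4, and Itgb1 (chr8:128685654-128733579, plus strand) had 6.

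**Figure D2:**
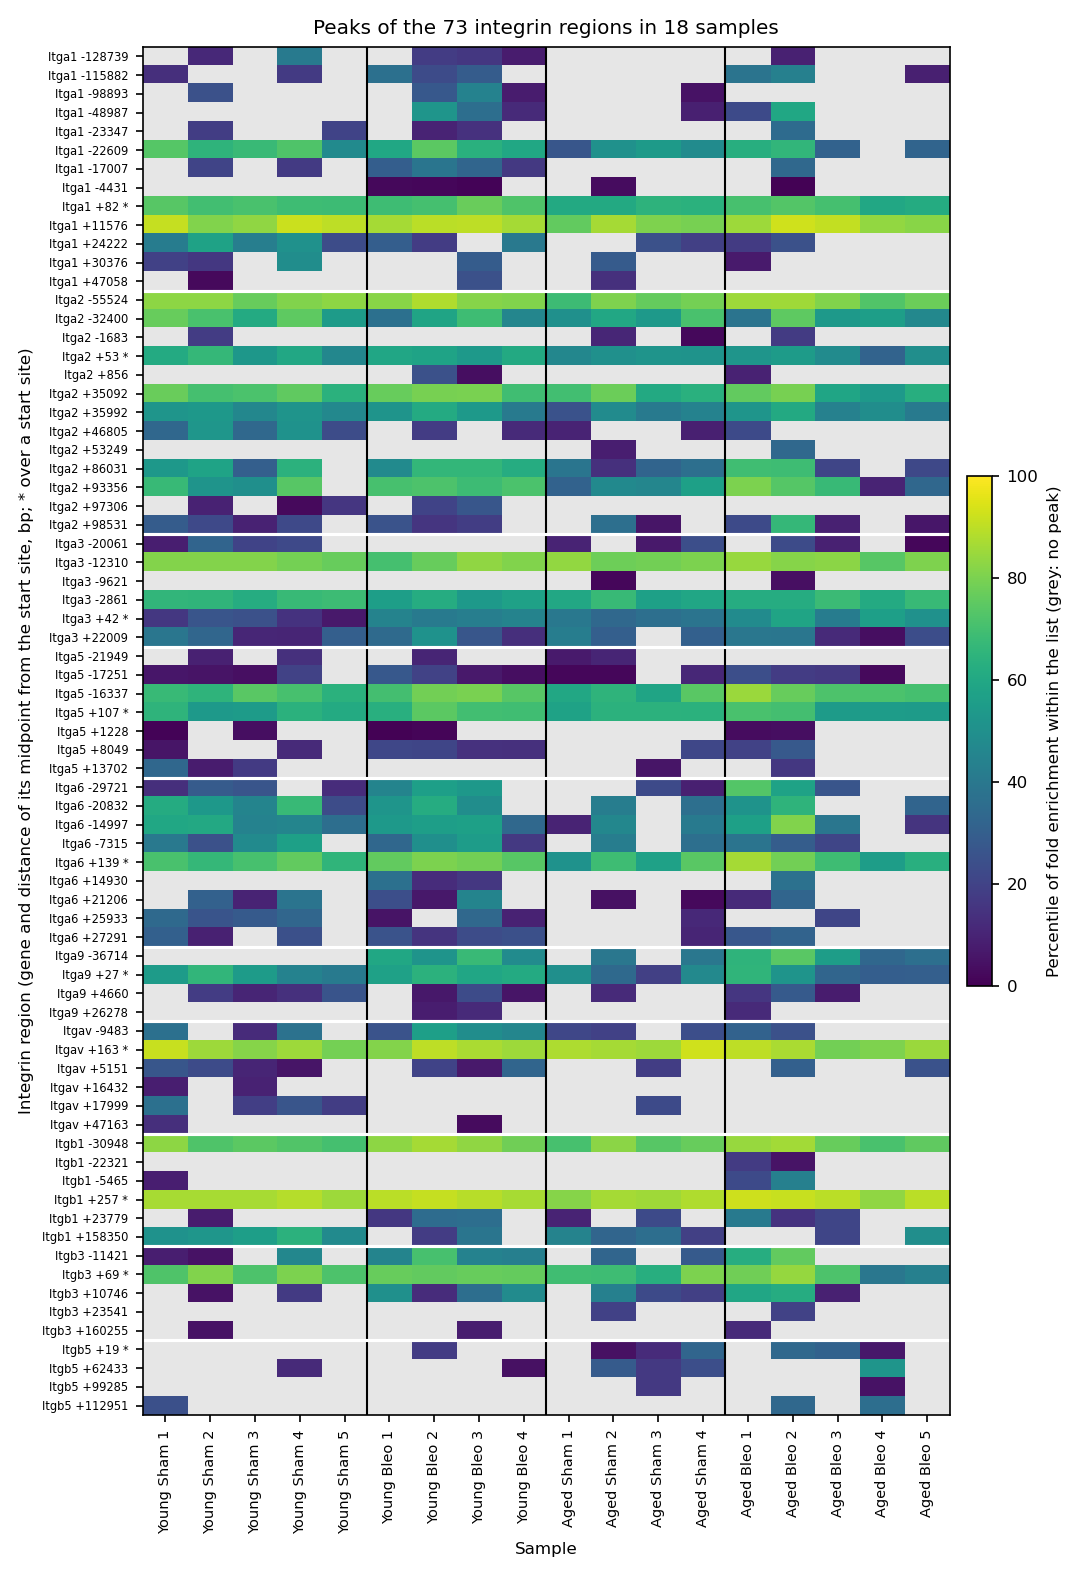
Strength of each of the 73 integrin regions (rows, named by gene and distance in bp, asterisk for a region over a start site) in each of the 18 samples (columns). Colour is the percentile of fold enrichment within the sample's own list and grey is no peak. Rows over a start site are filled across all 18 samples except for Itgb5, and 22 regions had a peak in only 2 to 5 samples.

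Strength is given as the percentile of a peak's fold enrichment within its own list, where 100 is the strongest peak of that sample, because fold enrichment was not scaled between libraries. The start sites of Itgb1 and Itgav were the strongest in every group. Itgb1, the common β chain, had the strongest start-site peak on average, with a mean percentile of 87.8 over 18 samples (range 81.7 to 92.4). Itgav followed at 85.6 (78.8 to 92.7), and these ranges overlapped almost entirely. In Aged Sham the order was reversed (mean percentile 88.1 for Itgav and 85.5 for Itgb1).

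Lower in the order, Itgb3 had a mean percentile of 71.2 (39.8 to 84.0), Itga6 70.2 (51.1 to 86.3) and Itga1 68.2 (59.9 to 77.3), and these neighbours did not differ beyond their spread. Itga5 had 62.9 (53.8 to 74.8), Itga2 53.0 (31.7 to 66.5) and Itga9 47.9 (18.9 to 65.9), again with overlapping ranges. Itga3 had 37.0 (6.74 to 58.4), the widest range of these genes. It was the start site whose percentiles were called as different between groups in the main test of strength. Itgb5 was weakest, with a peak in 7 samples at a mean percentile of 19.8 (4.38 to 33.6), built from 9 to 16 fragments at the summit.

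**Figure D3:**
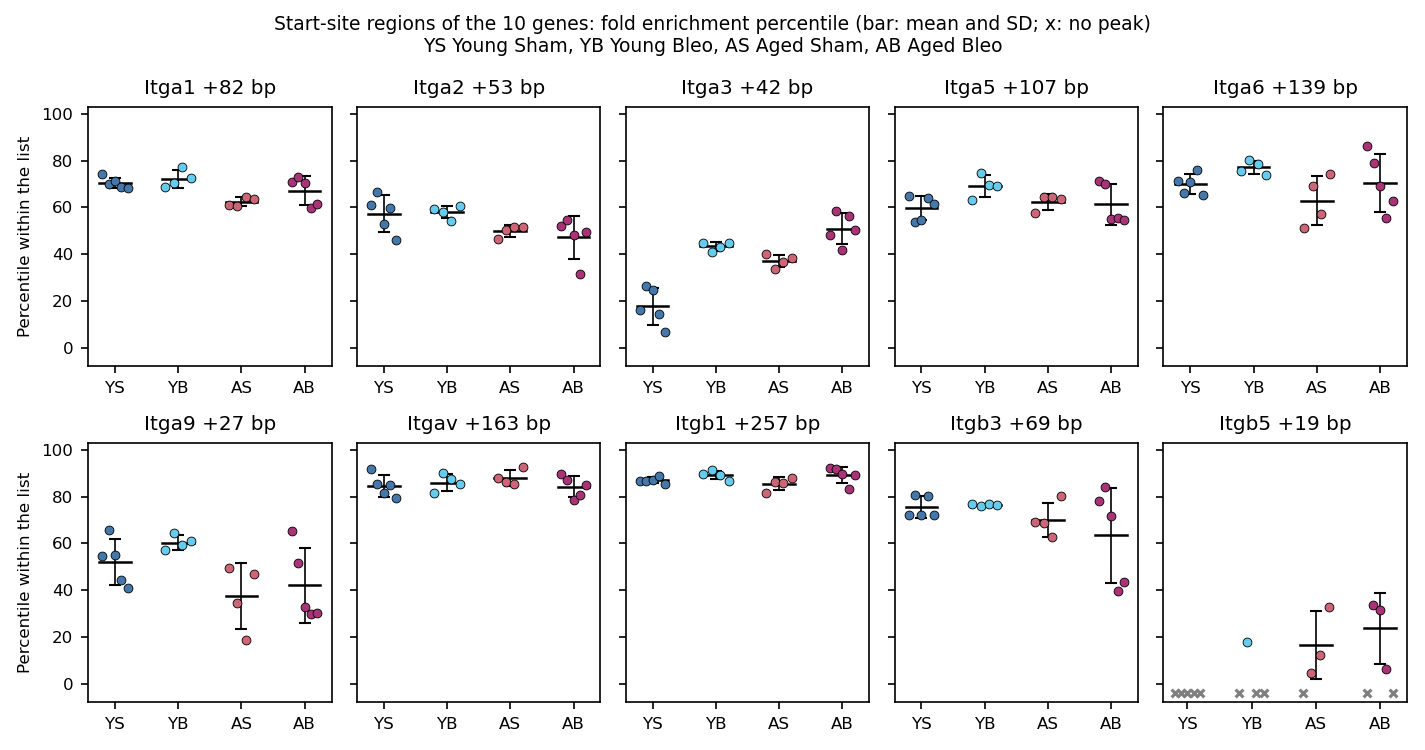
Percentile of fold enrichment within the list (y axis) at the start-site region of each of the 10 genes, by group (YS, YB, AS and AB stand for the sham and bleomycin groups of young, then aged, mice). Points are samples, bars are mean and SD over samples with a peak, and crosses are samples without one. Itga3 was lowest in Young Sham (17.7 ± 7.98), with no overlap with any other group, and Itgb5 had no peak in the 5 Young Sham samples.

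Strong regions away from start sites were found at several genes. Itga2 −55524, which lies over a coding exon of Itga1, had a mean percentile of 80.4 over 18 samples, Itga3 −12310 had 79.8, Itgb1 −30948 had 78.0 and Itga5 −16337 had 71.0. Each of these was stronger on average than the start site of its own gene except Itgb1 −30948. A further region inside Itga1 (Itga1 +11576, chr13:115089920-115090856, mean percentile 86.0) covers the TSS of Pelo, a ribosome rescue factor gene nested in Itga1, and is counted here only by gene body.

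Of the strings marked in the sequences, the GC box was more frequent over start sites than away from them. No difference by position was tested. In 200 bp windows, the GC box was found in 7 of the 10 start-site regions and in 6 of the 63 others (9.52%), the AP-1 string in 1 and 12 (19.05%), and the ETS-type string in 1 and 16 (25.4%). Over all 73 integrin regions the ETS-type string was found in 17 (23.3%, 95% Wilson interval 15.1 to 34.2%) against 19.96% of all consensus regions, the AP-1 string in 13 (17.8%) against 8.63%, and the GC box in 13 (17.8%) against 25.2%. Start-site windows had a median GC content of 73.3% and the others 50%, against 53% over all regions. Over whole regions, which vary in width, the ETS-type string was found in 27.4% of integrin regions against 31.6% of all, the reverse order to the windows, the AP-1 string in 27.4% against 15.2%, and the GC box in 30.1% against 34.2%. These are matches of letters and not measured binding.

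The comparison of Aged Sham with Young Sham set the ages side by side without injury. Fewer integrin regions were called in the aged mice, but the samples overlapped. Young Sham samples had a peak at 47, 51, 41, 48 and 30 integrin regions and Aged Sham samples at 30, 44, 34 and 44. The highest Aged Sham counts lay above the lowest Young Sham counts. The means were 43.4 ± 8.32 (SD, n = 5) and 38.0 ± 7.12 (SD, n = 4). As shares of the 73 these are 59.5% and 52.1%, beside 71.9% and 59.2% of all consensus regions, which were also fewer in the aged mice. By region, the share of samples with a peak was lower in Aged Sham at 31, equal at 24 and higher at 18 of the 73 (42.5, 32.9 and 24.7%), beside 38.4, 51.6 and 10.1% of all 47338 regions.

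After bleomycin the mean number of called regions was higher in young mice, and in aged mice the samples spread widely. Young Bleo samples had a peak at 43, 55, 55 and 41 integrin regions (48.5 ± 7.55, n = 4) and Aged Bleo samples at 48, 57, 35, 26 and 30 (39.2 ± 12.9, n = 5). Of the Young Bleo samples 2 lay within the Young Sham range and 2 above it, and Aged Bleo held both the highest and the lowest sample of the study. As mean shares of the integrin regions these are 66.4% in Young Bleo and 53.7% in Aged Bleo. Of all consensus regions, 75.1 ± 5.87% had a peak in Young Bleo, beside 71.9% in Young Sham, and 62.9 ± 15.6% in Aged Bleo. The whole lists thus showed the same higher young mean and the same wide aged spread. Against Young Sham the share of samples with a peak was lower at 19, equal at 26 and higher at 28 regions in Young Bleo, where 20.4, 52.2 and 27.4% of all regions were lower, equal and higher. In Aged Bleo it was lower at 28, equal at 27 and higher at 18 (36.7, 48.1 and 15.2% of all). Against Aged Sham it was lower at 25, equal at 22 and higher at 26 in Aged Bleo (22.1, 44.9 and 33.0% of all).

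The number of integrin regions called moved with the number of regions called anywhere. Across the 18 samples the share of integrin regions with a peak and the share of all consensus regions with a peak had a Spearman correlation of 0.931, as a description of samples that share list depth. In every sample the integrin share was the lower of the pair, by 2.30 to 20.6 percentage points. Among 598 genes outside the lists with at least 10 regions, those most like the integrin pattern were Dennd3 (Spearman 0.960, 12 regions), Swap70 (0.959, 12 regions) and Lrrfip1 (0.951, 14 regions). The median gene of that set had 0.787, so a high likeness was common.

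**Figure D4:**
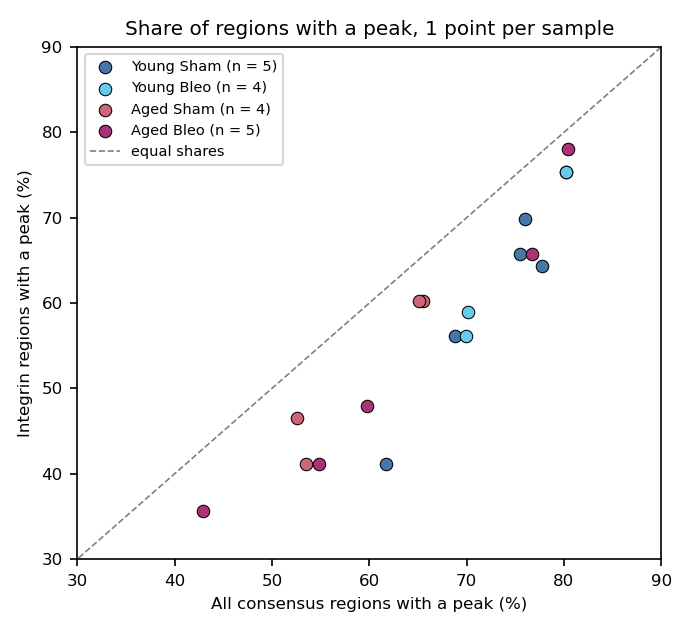
Share of all consensus regions with a peak (x axis, %) and share of the 73 integrin regions with a peak (y axis, %) in each of 18 samples, coloured by group. The dashed line marks equal shares. All 18 points lie below the line, and the lowest and the highest are both Aged Bleo samples, at 35.6% and 78.1% of integrin regions.

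Single genes showed the same spread. Itga6 had a peak at 6.60 ± 1.52 of its regions in Young Sham, 7.75 ± 1.89 in Young Bleo, 4.25 ± 2.87 in Aged Sham and 4.80 ± 2.86 in Aged Bleo. Itga1 had 8.60 ± 2.41, 11.5 ± 2.38, 6.75 ± 1.5 and 7.2 ± 3.27 in the same order. Over all consensus regions the share with a peak had means of 71.9, 75.1, 59.2 and 62.9% in that order of groups, so these genes followed the order of the whole lists, and their samples overlapped between Young Sham and Aged Sham. Itgav had 3.80 ± 1.79, 3.00 ± 0.816, 2.25 ± 0.5 and 1.80 ± 0.837, and Itgb5 had 0.400 ± 0.548, 0.5 ± 0.577, 1.75 ± 1.26 and 1.40 ± 1.673. The mean for Itgb5 was higher in both aged groups than in either young group, and so was that for Itgb1, by less (3.4 ± 0.548, 3.25 ± 0.957, 3.50 ± 0.577 and 3.80 ± 1.30). Itga2, by contrast, stayed between 8.40 and 9.25 in all 4 groups.

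Presence of a peak was tested region by region with the two-sided Fisher's exact test over all 47338 regions, taking an unadjusted p of up to 0.05 as called. With these group sizes the smallest p that can arise is 0.00794, and no region of the genome passed after Benjamini-Hochberg adjustment in any of the 4 comparisons. The smallest adjusted p by Fisher's exact test was 0.786 for Aged Sham, 0.535 for Young Bleo and 1 for Aged Bleo against Young Sham, and 1 for Aged Bleo against Aged Sham. The 3 comparisons with Young Sham share the same 5 control lists. The calls below are therefore unadjusted, and each count stands beside the share of all regions called in the same direction.

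In Aged Sham against Young Sham, 0 integrin regions were called with fewer peaks (4.90% of all regions) and 1 with more (0.264% of all regions). In Young Bleo against Young Sham, 2 were called with fewer peaks (1.96% of all) and 4 with more (3.98% of all). In Aged Bleo against Young Sham, 2 were called with fewer (3.01% of all) and 1 with more (0.201% of all). In Aged Bleo against Aged Sham, 0 were called with fewer (0.410% of all) and 0 with more (0.475% of all), also at an unadjusted p. With 73 regions, each of these counts is a handful or none, and 8 different regions carried all of them. With only peaks of a −log10 q of at least 5, Young Bleo against Young Sham had 1 fewer and 8 more of 68 regions (1.91 and 4.38% of all).

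The clearest presence difference was at Itga9 −36714 (chr9:118674826-118675129, 304 bp), in an intron of the long Itga9 transcript and upstream of the TSS of the shorter one. No Young Sham sample had a peak there. It was present after bleomycin in 4 of 4 young and 5 of 5 aged samples, and in 2 of 4 samples of Aged Sham. Percentiles were 59.7, 51.8, 67.8 and 48.4 in Young Bleo, 39.5 and 39.8 in the 2 Aged Sham samples, and 65.2, 74.6, 55.7, 33.2 and 36.5 in Aged Bleo. The bleomycin groups thus all had a peak of middling strength where the young control had none. Fisher's exact test gave an unadjusted p of 0.00794 for both Young Bleo and Aged Bleo against Young Sham. Aged Bleo against Aged Sham was not called (p = 0.167, Fisher's exact test). Within lane 8 the single Young Bleo sample had the peak and the 5 Young Sham samples did not. Within lane 7 it was present in 3 of 3 Young Bleo and 1 of 3 Aged Sham samples, and within lane 6 in 5 of 5 Aged Bleo samples and in the 1 Aged Sham sample.

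The sequence of the Itga9 intronic region is repeated in the genome. Of the 153 stretches of 21 bases outside soft-masked sequence in the whole region of 304 bp, 89 (58.2%) occur elsewhere in GRCm38.p6, against a median of 0.293% and a maximum of 12.9% among the other 72 integrin regions. Within the 200 bases printed above, 72 of 122 such stretches (59.0%) do. The region shares such stretches with 3 other consensus regions, each with a peak in all 18 samples. At chr13:9834185-9834512 the mean percentile was 63.7 ± 7.97 in Young Sham, 98.6 ± 2.51 in Young Bleo, 73.3 ± 6.73 in Aged Sham and 92.7 ± 7.68 in Aged Bleo. At chr2:73867837-73868122 it was 45.9 ± 5.54, 86.2 ± 13.4, 50.1 ± 20.9 and 81.0 ± 15.6, and at chr16:11143920-11144374 it was close to 100 in every group. At the first 2 of these repeats, too, the bleomycin groups stood higher than the sham groups. Read pairs were kept when 1 end mapped uniquely, and the part of these copies in the Itga9 difference was not tested.

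Among the fibronectin and RGD receptor genes, an intronic region of Itgav had fewer peaks in both bleomycin groups than in Young Sham. Itgav +17999 (chr2:83742231-83742561) had a peak in 4 of 5 Young Sham samples, at percentiles 36.9, 18.5, 26.5 and 18.2, and in 1 of 4 Aged Sham samples (22.4). Neither bleomycin group had it (0 of 4 young and 0 of 5 aged samples). Fisher's exact test gave an unadjusted p of 0.0476 for Young Bleo and for Aged Bleo against Young Sham, and 0.444 for Aged Bleo against Aged Sham, which was not called. The Young Bleo call was lost in 8 of 18 fits that left out 1 sample (highest p 0.143). The Young Sham peaks rested on 13 to 16 fragments at the summit, so these were weak peaks. The start site of Itgav had a peak in all 18 samples at 78.8 or above, and none of the 3 comparisons with Young Sham called it.

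Itgb5, which pairs with αv, had its start-site peak only in some animals. Itgb5 +19 (chr16:33829489-33829878, 5′ end of the gene) had a peak in 0 of 5 Young Sham and 1 of 4 Young Bleo samples (percentile 17.8). In aged mice it was present in 3 of 4 sham (4.38, 12.5 and 32.7) and 3 of 5 bleomycin samples (33.6, 31.4 and 6.30). Fisher's exact test gave an unadjusted p of 0.0476 for Aged Sham and 0.167 for Aged Bleo against Young Sham. The Aged Sham call was lost in 8 of 18 fits without 1 sample (highest p 0.143), and with 50% cover or a −log10 q of at least 5 (both p = 0.167, Fisher's exact test). The samples with a peak were mostly aged, although aged lists were on average shorter. Within lane 7, 2 of 3 Aged Sham and 1 of 3 Young Bleo samples had the peak.

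At the collagen receptor genes, Itga2 +46805 (chr13:114885094-114885495, intron) had a peak in 5 of 5 Young Sham samples at percentiles 33.3, 52.6, 33.9, 51.0 and 23.3. It had one in 2 of 4 Young Bleo (17.8 and 11.9), 2 of 4 Aged Sham (10.04 and 8.75) and 1 of 5 Aged Bleo samples (22.3). Every peak outside Young Sham was weaker than the weakest within it, and Fisher's exact test gave an unadjusted p of 0.0476 for Aged Bleo against Young Sham. Upstream of Itga1, 2 intergenic regions had more peaks in Young Bleo. Itga1 −4431 had a peak in 0 of the Young Sham and 3 of the Young Bleo samples, and in 1 sample of each aged group, all between percentiles 0.660 and 3.44, at the bottom of their lists. Itga1 −48987 had a peak in 0 and 3 young samples (sham, bleomycin) and in 1 and 2 aged samples, and both gave p = 0.0476 by Fisher's exact test for Young Bleo against Young Sham. Each of the 2 was lost in 8 of 18 fits without 1 sample (highest p 0.143), and Itga1 −48987 also with 50% cover (p = 0.167, Fisher's exact test). Itga2 +46805 was lost with lists of equal length (p = 0.444, Fisher's exact test).

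At the laminin receptor genes, Itga6 +14930 (intron, sequence above) had a peak in 3 of 4 Young Bleo and 1 of 5 Aged Bleo samples and in none of the sham samples of either age. Itga3 −20061 (chr11:95096659-95097084, intergenic) had one in 4 of 5 Young Sham but 0 of 4 Young Bleo samples, and in 3 of 4 (sham) and 3 of 5 (bleomycin) aged samples. Each gave an unadjusted p of 0.0476 by Fisher's exact test for Young Bleo against Young Sham. Both calls were lost when peaks had to cover 50% of the region (p = 0.167, Fisher's exact test), that at Itga3 −20061 also with a −log10 q of at least 5 (p = 0.167), and each in 8 of the 18 fits that left out 1 sample (highest p 0.143). By the main rule Young Bleo thus had more peaks than Young Sham at Itga6 +14930 and fewer at Itga3 −20061. Aged Bleo and Aged Sham were not called as different at either region.

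Strength was compared with limma on the percentiles at the 17432 regions with a peak in all 18 samples, of which 18 were integrin regions, with all 4 groups in one fit. The only call, at an adjusted p of up to 0.05, was the Itga3 start site. In Aged Sham against Young Sham 1 of the 18 was called (1.21% of all 17432), in Young Bleo 1 (0.447% of all), and in Aged Bleo 1 (7.73% of all). In Aged Bleo against Aged Sham 0 were called (1.33% of all), with 3 higher and 0 lower at an unadjusted limma p under 0.05, where 9.80% of all regions were higher and 5.08% lower. For the difference between the bleomycin responses at the 2 ages 0 were called (0.00574% of all), with 1 higher and 1 lower at an unadjusted limma p under 0.05, where 4.84% of all were higher and 1.97% lower. At that unadjusted p, 1 integrin region was higher and 3 were lower in Aged Sham against Young Sham (0.809% and 18.4% of all), 3 and 1 in Young Bleo (5.06% and 5.43%) and 1 and 1 in Aged Bleo (4.31% and 21.8%). The median shift over the 18 integrin regions was −5.07, 1.99 and −0.64 percentile points for Aged Sham, Young Bleo and Aged Bleo against Young Sham, beside −3.62, 0.41 and −3.25 over all regions.

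Itga3 +42 (chr11:95076429-95077108) covers the TSS of the gene for the α3 chain of the laminin receptor. Its percentiles were 16.3, 26.2, 24.7, 14.5 and 6.74 in Young Sham, 44.7, 41.0, 42.9 and 44.9 in Young Bleo, 39.9, 33.8, 36.7 and 38.5 in Aged Sham, and 48.1, 58.4, 41.8, 56.4 and 50.4 in Aged Bleo. Every sample of the other 3 groups was above every Young Sham sample. The means were 17.7 ± 7.98, 43.4 ± 1.81, 37.2 ± 2.64 and 51.0 ± 6.64.

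Against Young Sham, the Itga3 start site stood higher by 19.5 percentile points in Aged Sham (SE 3.75, limma adjusted p = 0.0256), by 25.7 in Young Bleo (SE 3.75, adjusted p = 0.0113) and by 33.3 in Aged Bleo (SE 3.54, adjusted p = 0.000545). The Aged Sham call was lost in 4 of 18 fits that left out 1 sample (highest limma adjusted p 0.0812) and with a replicate block. With the strongest 21050 peaks of each list the differences were 13.8 (limma adjusted p = 0.378), 6.42 (0.742) and 26.4 (0.0236), so that only Aged Bleo kept its call. That setting changed the list length and the regions fitted (14058) at once, and the cause was not tested. Ranked by −log10 p they were 12.7 (limma adjusted p = 0.0551), 13.9 (0.120) and 21.5 (0.00142), again with a call only in Aged Bleo. Aged Bleo was 13.8 above Aged Sham (SE 3.75, limma adjusted p = 0.0836), which did not pass. On log2 fold enrichment that comparison did pass (0.389, limma adjusted p = 0.0419). The response to bleomycin was 11.9 points smaller in aged mice in the fit (−11.9, SE 5.31, limma adjusted p = 0.718), so a difference between ages was not detected, and its sign turned with equal lists (6.18) and with fragments (0.0138 on the log2 scale). Within lane 8 the Young Bleo sample, at 44.9, was above all 5 Young Sham samples. Within lane 7 the 3 Young Bleo samples (41.0 to 44.7) were above the 3 Aged Sham samples (33.8 to 39.9), and within lane 6 the 5 Aged Bleo samples (41.8 to 58.4) were above the Aged Sham sample (38.5). With lane as a term the sizes were 21.1, 27.2 and 33.6 points for the 3 comparisons with Young Sham, but limma adjusted p was 0.645, 1 and 0.641, and no region of the genome was called.

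Fold enrichment divides the fragments at the summit by the number expected from the surroundings, and both were recovered from the deposited columns. The Itga3 start site had 55, 72, 68, 53 and 37 fragments in Young Sham, 61, 73, 64 and 72 in Young Bleo, 66, 72, 60 and 81 in Aged Sham and 76, 138, 70, 66 and 74 in Aged Bleo. These counts, unscaled for library depth, overlapped between groups. The expected number was 9.28 ± 1.63 in Young Sham, 7.27 ± 0.934 in Young Bleo, 8.04 ± 1.5 in Aged Sham and 7.62 ± 2.01 in Aged Bleo, well above the 1.02 to 1.78 expected over the genome in the same lists.

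**Figure D5:**
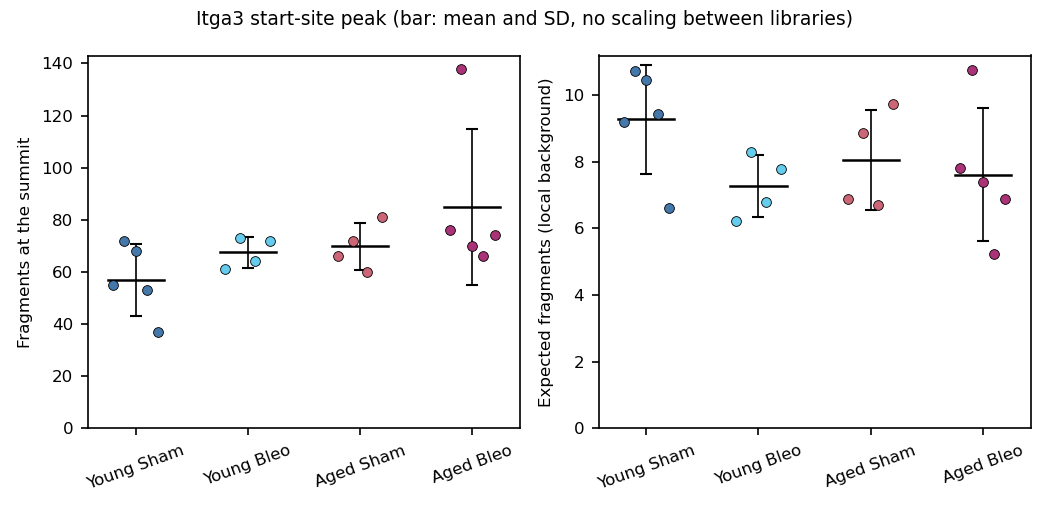
Fragments at the summit of the Itga3 start-site peak (left, y axis, number of fragments) and the number expected from its surroundings (right, y axis), by group. Points are samples, bars are mean and SD, and neither is scaled between libraries. Fragments were highest on average in Aged Bleo (84.8 ± 29.99), where 1 sample reached 138, and the expected number was highest in Young Sham.

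Scaled to a median within each list on the log2 scale, the 2 parts moved differently by comparison. That median was taken over the 14384 regions with a peak in all 18 samples and solved fragments in each. For summit fragments this was not the median over all peaks of a list. That one was 28 to 33 fragments in Young Sham, 27 to 29 in Aged Sham and 25 to 28 in Aged Bleo. With it, the fragment differences of the aged groups from Young Sham, here and below, would be lower, and that fit was not run. Summit fragments at the Itga3 start site were higher by 0.78 in Aged Sham (limma adjusted p = 0.0102) and by 1.07 in Aged Bleo (adjusted p = 0.000156), and by 0.27 in Young Bleo (adjusted p = 0.306), which did not pass. The expected number differed by 0.21, 0.18 and −0.27 in the same order (limma adjusted p = 0.169, 0.111 and 0.0515). The neighbouring region Itga3 −2861 had 131, 145, 131, 132 and 102 fragments in Young Sham and 73, 110, 79 and 88 in Young Bleo. It had 98, 141, 88 and 117 in Aged Sham and 99, 151, 114, 73 and 106 in Aged Bleo. Before any scaling it was therefore highest in Young Sham on average. Scaled as above, its expected number differed from Young Sham by 0.21 in Aged Sham, 0.18 in Aged Bleo and −0.27 in Young Bleo (limma adjusted p = 0.180, 0.117 and 0.0635). Itga3 −2861 is the nearest integrin region to the start site, and its part in the Itga3 result was not tested.

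In the main fit, the other 17 integrin regions with a peak in every sample did not pass on percentiles of fold enrichment. The largest differences were a lower Itga9 start site in Aged Sham (−14.8 points, SE 7.70, limma adjusted p = 0.306) and a lower region Itga2 −32400 in Young Bleo (−15.4, SE 7.57, adjusted p = 0.507). Itga3 −2861 had the smallest unadjusted limma p, as it was lower in Young Bleo (−8.45 points, SE 2.36, adjusted p = 0.143). Its difference between the bleomycin responses at the 2 ages was 11.8 points (SE 3.34, limma adjusted p = 0.468). Itga1 +82, the start site of the α1 collagen receptor chain, was lower in Aged Sham (−8.02 points, SE 2.66, limma adjusted p = 0.126). Its percentiles did not overlap, at 68.4 to 74.2 in Young Sham and 60.9 to 64.5 in Aged Sham. In that comparison 18.4% of all regions were lower at an unadjusted limma p under 0.05, and the median shift over all regions was −3.62 points. Itga5 −16337, upstream of the gene for the fibronectin receptor chain, was 10.8 points higher in Aged Bleo than in Aged Sham (SE 3.62, limma adjusted p = 0.157), and Itgb1 +257 was 3.79 higher (SE 1.80, adjusted p = 0.343). With lists of equal length, Itga5 −16337, Itgb1 +257 and Itgb1 −30948 did pass in Aged Bleo against Young Sham. They were higher by 17.7, 6.81 and 12.7 points (limma adjusted p = 0.0217, 0.0194 and 0.0195). In that setting 8.64% of all regions passed in this comparison.

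On summit fragments, where 17 of the 18 regions could be solved, more of them passed, and so did more of the genome. Besides the Itga3 start site, the Itga5 start site (Itga5 +107) was higher by 0.65 on the log2 scale in Young Bleo (limma adjusted p = 0.00777) and by 0.56 in Aged Bleo (0.00792), both against Young Sham. Itga5 −16337 was higher by 0.69 in Young Bleo (limma adjusted p = 0.00769), by 0.66 in Aged Bleo (0.0041) and by 0.55 in Aged Bleo against Aged Sham (0.0371). The local expectation at both regions of this fibronectin receptor gene was higher as well, as it differed widely over the genome: against Young Sham, Aged Bleo passed on it at 38.9% of 14384 regions, Young Bleo at 16.8% and Aged Sham at 8.63%, and Aged Bleo against Aged Sham at 10.6% (limma adjusted p up to 0.05). At Itga5 +107 it differed by 0.42 in Young Bleo (limma adjusted p = 0.00977) and 0.39 in Aged Bleo (0.00446). At Itga5 −16337 it differed by 0.51 in Young Bleo (0.0148), 0.32 in Aged Bleo (0.0561) and 0.27 in Aged Bleo against Aged Sham (0.203). Itgb1 −30948 was higher by 0.57 in Young Bleo (limma adjusted p = 0.0350) and by 0.66 in Aged Bleo (0.00727). Itga9 +27 was higher by 0.62 (0.0308) and Itga3 −2861 lower, at −0.55 (0.0274), in Young Bleo, and Itga3 −12310 was higher by 0.41 in Aged Sham (0.0294) and by 0.39 in Aged Bleo (0.0102), all limma adjusted p. The local expectation moved in the same direction in each of these, by 0.37 (limma adjusted p = 0.0740) and 0.40 (0.0234) at Itgb1 −30948, 0.44 (0.000878) at Itga9 +27, −0.27 (0.0635) at Itga3 −2861, and 0.27 (0.0631) and 0.24 (0.0302) at Itga3 −12310. Before scaling, fragments at Itga3 −12310 were 135.4 ± 19.9 in Young Sham, 131.5 ± 28.4 in Aged Sham and 128.6 ± 44.4 in Aged Bleo. The higher values there thus appear only after scaling.

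With the Itga3 start site included, the integrin regions that passed on fragments were 2 in Aged Sham (7.41% of 14384 regions), 5 in Young Bleo (13.2% of all), 5 in Aged Bleo (24.5% of all) and 1 in Aged Bleo against Aged Sham (9.08% of all). For the difference of the bleomycin responses 0 passed (0.160% of all), with 1 higher and 1 lower of 17 at an unadjusted limma p under 0.05, where 7.07% of all were higher and 6.43% lower. Fragments at the summit are not divided by the local expectation, and this fit was added after seeing the data.

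Other genes of the pathway were counted from lists, with regions taken by nearest TSS only and not, as for the integrin regions, also by gene body. Of 16 further integrin subunits, among them the leukocyte chains, 7 had regions, 18 in all. By Fisher's exact test at an unadjusted p of up to 0.05, 1 region had fewer and 1 had more peaks in Aged Sham, 0 fewer and 3 more in Young Bleo, and 1 fewer and 1 more in Aged Bleo, each against Young Sham. As shares these are 5.56% fewer and 5.56% more in Aged Sham and in Aged Bleo and 16.7% more in Young Bleo, beside 4.90% and 0.264%, 3.01% and 0.201%, and 3.98% of all regions. The Itga4 start-site region, of the α4 chain that binds VCAM-1, had a peak in 5 of 5 sham and 3 of 4 bleomycin samples of young mice and in 0 of 4 and 1 of 5 of aged mice (p = 0.00794 for Aged Sham, Fisher's exact test). A region 16.6 kb upstream of Itgb4, the β4 chain of the laminin receptor α6β4, had one in 0 of 5, 4 of 4, 4 of 4 and 4 of 5 samples in that order, and a region 17.3 kb upstream of Itgb6 in 0 of 5, 4 of 4, 1 of 4 and 3 of 5. The Itgb4 start site had one in 1 of 5, 4 of 4, 2 of 4 and 2 of 5 (p = 0.0476 for Young Bleo, Fisher's exact test). The upstream regions of Itgb4 and Itgb6 thus had no peak in any Young Sham sample, the Itgb4 start site had 1, and Itga4 had a peak in all of them.

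Adhesion adaptors and kinases such as talin, kindlin and focal adhesion kinase had 120 regions at 18 of 18 genes. Against Young Sham, 9 of these had fewer and 0 more peaks in Aged Sham, 7 fewer and 2 more in Young Bleo, and 5 fewer and 0 more in Aged Bleo. Matrix ligands such as laminins and collagen IV had 56 regions at 9 of 12 genes, with 5 fewer and 0 more, 3 fewer and 0 more, and 4 fewer and 0 more in the same order. The share called with fewer peaks was 7.50% of the adaptor and 8.93% of the ligand regions in Aged Sham, beside 4.90% of all regions and 0 of 73 integrin regions. It was 5.83% and 5.36% in Young Bleo beside 1.96% of all, and 4.17% and 7.14% in Aged Bleo beside 3.01% of all. The share called with more peaks was 1.667% of the adaptor regions in Young Bleo, beside 3.98% of all, and 0 otherwise, beside 0.264% of all in Aged Sham and 0.201% in Aged Bleo.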

How the data were processed

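Omni-ATAC-seq of sorted lung ECs was measured in 18 mice, 1 list per mouse. According to the methods, the authors mapped read pairs to mm10 with BWA, kept pairs with at least 1 unique end, removed PCR duplicates and called the peaks of each sample by MACS2 (FDR cutoff 1%). The deposited lists give, for each peak, the fold enrichment over the local expectation (a ratio), the −log10 p-value, the −log10 q-value, a score and the summit. They hold no read counts, so the DiffBind comparison of the study was not repeated. The number of fragments at each summit and the local expectation were solved from fold enrichment and −log10 p up to 250.0. The share of peaks that gave a whole number within 0.02 was 99.986% in the lowest list, and the genome background was 1.02 to 1.78 fragments. Lists held 21050 to 40883 peaks. Intervals cover counting error only.

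Peaks of the autosomes and of X and Y were merged and annotated with RefSeq transcripts (45756) of GRCm38.p6, and 19 mitochondrial peaks in 5 lists were left out. Presence was tested with Fisher's exact test and strength with limma 3.58.1 in R 4.3.3, with Benjamini-Hochberg adjustment over all regions. Other steps used Python 3.11.15, pandas 2.3.3, NumPy 2.4.6, SciPy 1.17.1 and matplotlib 3.10.9, and both tests were tested on simulated data. Regions named were promoter regions, regions with an unadjusted Fisher p or adjusted limma p of up to 0.05, and the strongest distal region with a peak in all samples. Other start-site regions, and the larger differences that did not pass, were described as well, after their values were seen. Members and lists were chosen with earlier results of these data known. The AP-1 and GC box strings, the search for copies of sequences and the fit on fragments were added after seeing the data. Alternatives were other peak thresholds, equal list sizes, other overlaps and strength measures, lane, a replicate block and leaving out each sample.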

Additional observations from a re-analysis of the deposited data

Results flagged for a closer look

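Among 76 sets of samples tested, 2 held a sample that stood far from its group, where chance flags about 1 in 20. At the Itga5 start site (Itga5 +107), Aged Sham 1 had a percentile of 57.4, and the gap to the next Aged Sham sample was 0.925 of the range of the group. At the Itga2 start site (Itga2 +53), Aged Bleo 4 had a percentile of 31.7, and the gap was 0.716 of the range. Aged Bleo 4 also had the shortest list, with 21050 peaks. Neither region was called on percentiles of fold enrichment or by presence, while Itga5 +107 passed on summit fragments in Young Bleo (0.65 on the log2 scale, limma adjusted p = 0.00777) and Aged Bleo (0.56, 0.00792) against Young Sham.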

How the results depend on the processing

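For presence, a −log10 q of at least 5 gave 1 call in Aged Sham against Young Sham, but with fewer peaks (1 fewer, 0 more) where the main call, Itgb5 +19, had more. That call was also lost with 50% cover (both p = 0.167, Fisher's exact test). The calls at Itga6 +14930, Itga3 −20061 and Itga1 −48987 were lost with 50% cover, that at Itga3 −20061 at that q, and that at Itga2 +46805 with equal lists. At that q the count was 9 for Young Bleo and 3 for Aged Bleo against Young Sham, and 0 for Aged Bleo against Aged Sham (5.42, 6.28, 3.24 and 0.896% of all regions, in the order used below). The 9 were 1 fewer and 8 more (1.91 and 4.38% of all), where the main rule gave 2 and 4. Taking the same number of peaks from each list (21050) gave 0, 2, 1 and 1 integrin regions called for Aged Sham, for Young Bleo and for Aged Bleo against Young Sham, and for Aged Bleo against Aged Sham, in place of 1, 6, 3 and 0. This left 34 integrin regions of 27849, with 0, 1, 0 and 0 fewer (1.56, 3.19, 1.97 and 0.937% of all) and 0, 1, 1 and 1 more (1.36, 3.66, 1.09 and 0.542%). Of the 8 regions called by the main rule, only Itga9 −36714 and Itga2 +46805 could be followed there, and only Itga9 −36714 kept its calls. Peaks that covered at least 50% of a region gave 2, 6, 7 and 2 (6.40, 6.96, 5.94 and 1.17% of all). The 7 in Aged Bleo were 6 fewer and 1 more (5.80 and 0.142% of all), where the main rule gave 2 and 1. Leaving out 1 sample gave 0 to 1, 1 to 6, 3 to 5 and 0 to 0. The Aged Sham call (Itgb5 +19) was lost without any of Young Sham 1 to 5 or Aged Sham 2, 3 or 4, and Young Bleo calls fell to between 1 and 3 without any Young Sham or Young Bleo sample. The cause was not tested. Itga9 −36714 kept its calls in Young Bleo and Aged Bleo in every one of these fits and with a −log10 q of at least 5. Leaving out 1 sample could not remove them, as all bleomycin and no Young Sham samples had the peak (highest p 0.0286, Fisher's exact test). For strength, in the same order, equal lists gave 0, 0, 4 and 0 of 16 (0.747, 1.32, 8.64 and 0.0640% of 14058 regions), and percentiles of −log10 p gave 0, 0, 1 and 0 (5.60, 0.694, 19.5 and 2.59% of all). The 4 with equal lists were Itga3 +42, Itga5 −16337, Itgb1 +257 and Itgb1 −30948, all higher in Aged Bleo. Percentile 0 for samples without a peak gave 2, 4, 6 and 0 of 73 (2.70, 3.38, 5.97 and 0.0972% of 47338). These calls ran both ways: Itga3 +42 was higher and Itga2 +46805 lower in every comparison with Young Sham. Itga9 −36714 was higher and Itgb1 +158350 lower in both bleomycin groups, and Itga1 +24222 and Itgav +17999 were lower in Aged Bleo. Lane as a term gave 0 in each, and 0 of all regions, with 2, 1, 1 and 0 integrin regions at an unadjusted limma p under 0.05. Log2 fold enrichment gave 1, 1, 1 and 1 (1.71, 0.499, 6.53 and 2.28% of all). Fragments at the summit, added after seeing the data, gave 2, 5, 5 and 1, with Itga3 +42 not called in Young Bleo. The difference of responses at Itga3 +42 turned from −11.9 to 6.18 with equal lists and to 0.0138 (log2) with fragments, and was called in no fit. The cause was not tested. The main counts were 1, 1, 1 and 0. Leaving out 1 sample gave 0 to 1, 1 to 1, 1 to 1 and 0 to 1, and the difference of responses stayed at 0 to 0. The Itga3 call in Aged Sham was lost without Young Sham 1 or 4 or Aged Sham 1 or 3 (highest adjusted p 0.0812), and one in Aged Bleo against Aged Sham was gained without Aged Bleo 3 (adjusted p 0.0450). A replicate block gave 0, 1, 1 and 0 (1.18, 0.189, 6.20 and 0.235% of all). The numbers share no origin in the labels, and of 25 pairs with the same number 7 correlated above 0.1 (−0.258 to 0.359), so the samples share only a number. With 2 kb promoters the promoter share was 19.2%, against 30.6% of all regions. Peaks near the list threshold, of 9 to 16 fragments, limit presence calls, and a missing peak does not show closed chromatin.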
